A study of Mus musculus with 20 samples.

Results

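Quadriceps RNA-seq libraries from the control limbs of mice given an antibody against GDF8 (GDF8 Ab) were compared with those of mice given a placebo antibody (PLA Ab). The libraries were chosen by their labels alone, as the non-injured limbs under each antibody, which gave 5 GDF8 Ab and 5 PLA Ab libraries, 10 of the 20 in the series. According to the study's methods, adult mice of both sexes were used and each mouse had its anterior cruciate ligament cut in a single hind limb (ACLT). The control limb is therefore the opposite limb of an operated mouse and not that of an uninjured animal. The muscle was taken 7 days after ACLT, and the antibodies had been injected under the skin. The methods name C57BL/6J and Col1-eGFP mice for the drug treatments, and the labels do not say which line gave these libraries. The other 10 libraries, 5 GDF8 Ab and 5 PLA Ab, come from the ACLT limb.

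GDF8, or myostatin, is a protein of the transforming growth factor–β (TGF-β) family that muscle fibers secrete and that restrains their growth. It binds the activin type II receptors, chiefly the one encoded by Acvr2b, and signals through SMAD2 and SMAD3, which join SMAD4 and bind DNA at short GTCT and AGAC elements. Its prodomain and the secreted protein follistatin hold it inactive. Loss of GDF8 in mice enlarges muscle and shifts fibers toward a fast, glycolytic type. The question put to these libraries is what the antibody does to the transcriptome of muscle whose own knee was not injured.

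The transcriptomes of the control limbs differed little between the antibodies. The muscle transcript Mss51, the stress gene Gadd45b and the GDF8 receptor gene Acvr2b were lower in every GDF8 Ab library than in any PLA Ab library, and the sarcomeric actin gene Actc1, the growth factor binding protein gene Igfbp5 and the enzyme genes Dbt and Bcat2 were higher in every GDF8 Ab library, but no gene passed the test across all genes. In limma fits of log2(CPM + 1), where CPM is the read count scaled to a library total of 1000000, 0 of 12559 tested genes (0.0%) had a Benjamini-Hochberg adjusted p under 0.05, and the smallest adjusted p was 0.0667. At an unadjusted p under 0.05 there were 1246 genes (9.92%), where the threshold alone gives 628. Of these, 305 (2.43% of those tested) lay higher with GDF8 Ab and 941 (7.49%) lay lower. With median-of-ratios scaling the same split was 586 higher and 506 lower, and with TMM scaling 554 higher and 532 lower. The excess on the lower side thus rests on the deposited scaling, under which the median log2 fold change of all tested genes was -0.04. Under that scaling 38.5% of all tested genes had a positive log2 fold change. All 5 GDF8 Ab libraries lay above all 5 PLA Ab libraries for 38 genes (0.303%), and below them for 253 (2.01%). By chance, groups of 5 and 5 libraries separate completely with a probability of 0.00794, divided equally between higher and lower. The 38 higher genes did not exceed that share, and the 253 lower genes did. These counts were 76 and 110 with median-of-ratios scaling, both above that share. With the deposited scaling, lack of overlap on the higher side is thus a description and not evidence of a difference.

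Differences in level were small. A log2 fold change beyond 1 in size was fitted for 24 genes on the higher side and 6 on the lower side. The 95% interval of a single gene extended to either side by a median of 0.255 on the log2 scale (10th to 90th percentile 0.167 to 0.437), before any adjustment over genes. Genes named below were taken by a stated rule and, with no call, their values are descriptions. The volcano plot shows where they lie among all tested genes.

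**Figure D1:**
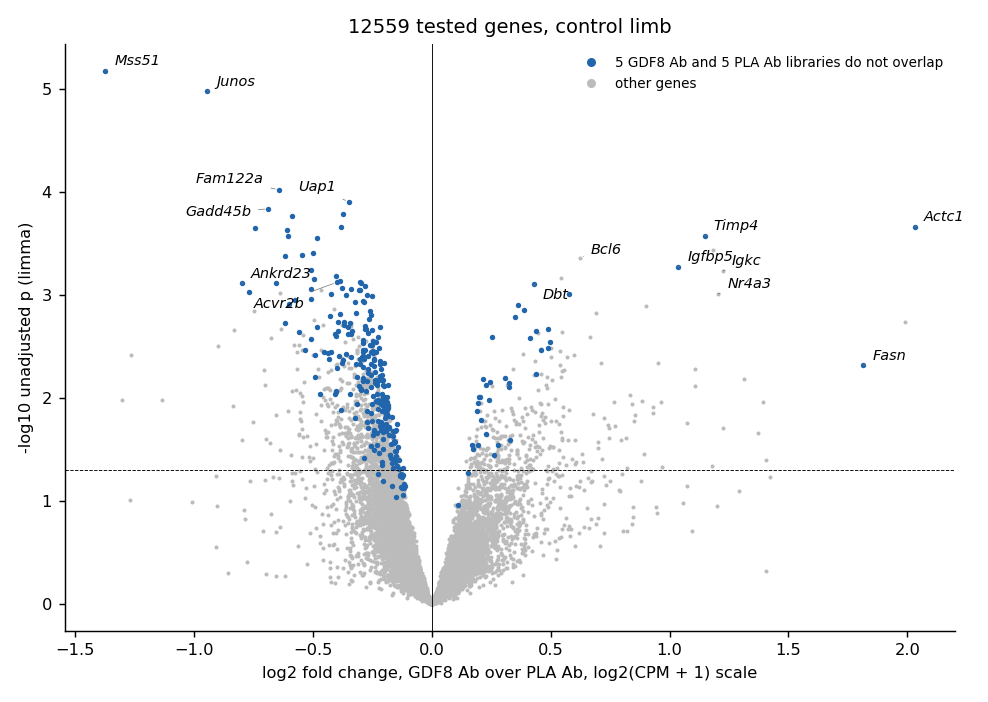
Each point is 1 of 12559 tested genes, with the log2 fold change of GDF8 Ab over PLA Ab on the horizontal axis and -log10 of the unadjusted limma p on the vertical axis (dashed line, p of 0.05). Blue points are the 38 genes on the right and 253 on the left whose groups do not overlap. Mss51 stands farthest up on the left and Actc1 farthest out on the right, and neither passed adjustment.

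Depth was 15.6 to 24.2 in the 10 control-limb libraries, in units of 1000000 reads, so 3 reads correspond to 0.124 to 0.192 CPM. Y-linked genes were expressed in GDF8 Ab library 3 and in PLA Ab libraries 1 and 3, at a mean of 36.2 CPM or more, and at 0.185 CPM or less in the other 7. The first principal component (30.6% of variance) placed these 3 libraries at -15.9 to -29.0 and the others at 2.9 to 22.1, so the largest axis of variation separated the libraries by Y-linked expression. Adding Y-linked expression as a covariate gave 0 genes higher and 3 lower, which were Mss51, Junos and an Aldoa entry. Markers of skeletal muscle fibers dominated each library, with the fast fiber list summing to 165100 to 184000 CPM with GDF8 Ab and 131000 to 172700 CPM with PLA Ab. Neutrophil markers summed to 1.00 to 1.90 CPM with GDF8 Ab and 0.93 to 1.83 CPM with PLA Ab.

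Mss51 had the smallest p of all tested genes. It encodes a protein found at mitochondria of skeletal muscle, and in mice its transcript is known to respond to myostatin and TGF-β signaling. The deposited table places it at chr14:20532935-20546970 on the minus strand, in coordinates that are not those of GRCm38. GDF8 Ab libraries 1 to 5 had 21.9, 27.2, 28.5, 17.2 and 21.9 CPM, against 77.9, 61.8, 81.45, 53.2 and 40.8 CPM in PLA Ab libraries 1 to 5. The groups did not overlap, the highest GDF8 Ab library lying below the lowest PLA Ab library. The means were 23.4 ± 4.55 CPM with GDF8 Ab and 63.0 ± 16.98 CPM with PLA Ab (SD, n = 5 each), and the fitted log2 fold change was -1.37 with an SE of 0.18 (adjusted p = 0.0667). The 95% interval ran from -1.77 to -0.97. Within PLA Ab, the libraries with Y-linked expression were the higher ones, and with Y-linked expression as a covariate the log2 fold change was -1.27 (adjusted p = 0.00696). Without PLA Ab library 5, the lowest of its group, it was -1.51 (adjusted p = 0.0139).

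Because Mss51 led the comparison, its promoter is printed with that of Nr4a3 and that of Actc1, which lay on the higher side. Sequences are from RefSeq in the build GRCm38.p6, 250 bases before to 50 bases after the annotated start, each 5′ to 3′ on the gene's strand. Mss51 lies at chr14:20496852-20497151 (minus strand), Nr4a3 at chr4:48045055-48045354 (plus strand) and Actc1 at chr2:114052826-114053125 (minus strand).
Mss51: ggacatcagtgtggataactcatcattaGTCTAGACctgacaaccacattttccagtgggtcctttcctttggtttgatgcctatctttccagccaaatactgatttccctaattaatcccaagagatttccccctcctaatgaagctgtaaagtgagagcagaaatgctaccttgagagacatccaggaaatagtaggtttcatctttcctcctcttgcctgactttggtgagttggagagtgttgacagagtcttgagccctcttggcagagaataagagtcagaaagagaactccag
Nr4a3: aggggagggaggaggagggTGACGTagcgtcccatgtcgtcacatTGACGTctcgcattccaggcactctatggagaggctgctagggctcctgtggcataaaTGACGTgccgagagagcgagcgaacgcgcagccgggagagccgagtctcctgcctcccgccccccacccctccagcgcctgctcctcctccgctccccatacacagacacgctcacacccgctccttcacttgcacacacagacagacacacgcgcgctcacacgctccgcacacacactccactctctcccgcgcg
Actc1: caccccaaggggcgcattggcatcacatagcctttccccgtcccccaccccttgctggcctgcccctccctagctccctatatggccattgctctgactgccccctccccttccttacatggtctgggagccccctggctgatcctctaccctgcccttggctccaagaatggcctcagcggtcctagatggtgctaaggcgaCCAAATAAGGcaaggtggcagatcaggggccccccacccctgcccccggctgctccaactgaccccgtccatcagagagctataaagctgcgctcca
Capitals in Mss51 mark GTCTAGAC, the palindromic element that SMAD3 and SMAD4 can bind, at position -222 from the start. That motif occurs in 70 of 32851 promoters of the same length (0.21%). Capitals in Nr4a3 mark TGACGT, the shared part of cAMP response elements, which occurs 3 times there and in 2468 of 32851 promoters (7.51%). Capitals in Actc1 mark a CArG box, the element bound by serum response factor, at position -47, and 535 of 32851 promoters (1.63%) hold such a match. All motifs were searched on both strands, and the Nr4a3 window holds no full TGACGTCA. A match describes the letters of a window and is not a measured binding site.

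Other genes of the lower side included regulators of stress signaling, the cytoskeleton and the sarcomere. Junos, a long noncoding RNA transcribed away from the transcription factor gene Jun, had 1.92, 3.09, 2.20, 2.78 and 1.86 CPM in GDF8 Ab libraries and 4.65, 5.94, 4.90, 6.54 and 5.20 CPM in PLA Ab libraries. Its groups did not overlap (log2 fold change -0.94 ± 0.13, adjusted p = 0.0667). Jun itself averaged 73.8 ± 11.7 CPM with GDF8 Ab and 63.1 ± 7.05 CPM with PLA Ab (log2 fold change 0.22, adjusted p = 0.551). The deposited coordinates of the 2 genes overlap and the counting is not stated to use strand, so their reads cannot be told apart over the shared part.

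Gadd45b, a growth arrest and stress protein that TGF-β induces in several cell types, had 17.3, 11.6, 14.5, 19.0 and 12.9 CPM in GDF8 Ab libraries and 26.5, 23.9, 20.6, 27.1 and 24.8 CPM in PLA Ab libraries. No GDF8 Ab library reached the lowest PLA Ab library (log2 fold change -0.69 ± 0.13, adjusted p = 0.25). Ankrd23 encodes an ankyrin repeat protein that binds the giant sarcomere protein titin. It had 2359, 2869, 2558, 2809 and 2908 CPM in GDF8 Ab libraries and 4046, 5507, 3028, 6586 and 5080 CPM in PLA Ab libraries (log2 fold change -0.80 ± 0.18, adjusted p = 0.273). The PLA Ab libraries of Ankrd23 were the more spread, with SDs of 235 CPM with GDF8 Ab and 1366 CPM with PLA Ab. Uap1, which makes the sugar donor UDP-N-acetylglucosamine, had the tightest groups of these genes, at 37.0 to 43.1 CPM with GDF8 Ab and 49.1 to 52.5 CPM with PLA Ab (log2 fold change -0.35 ± 0.06, adjusted p = 0.25).

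The remaining genes that the rule took on this side had groups that did not overlap. For Ankrd23, Hspa1l, Armh4 and the Aldoa entry, lack of overlap was itself the criterion that took them, so it is no further result. Fam122a, an inhibitor of protein phosphatase 2A, had a log2 fold change of -0.64, and Hspa1l, of the Hsp70 chaperone family, one of -0.74. Cap2, an actin-binding protein of striated muscle, Stag2, an X-linked cohesin subunit, Shisa4 and Armh4 stood at -0.37, -0.38, -0.59 and -0.65. Adjusted p was 0.25 to 0.273 for these 6 genes. The Aldoa entry ENSMUSG00000114515 stood at -0.62, but it adjoins the main aldolase A gene ENSMUSG00000030695 and the reads of each are uncertain. The plot of values by library shows how far apart the groups of 5 such genes were.

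**Figure D2:**
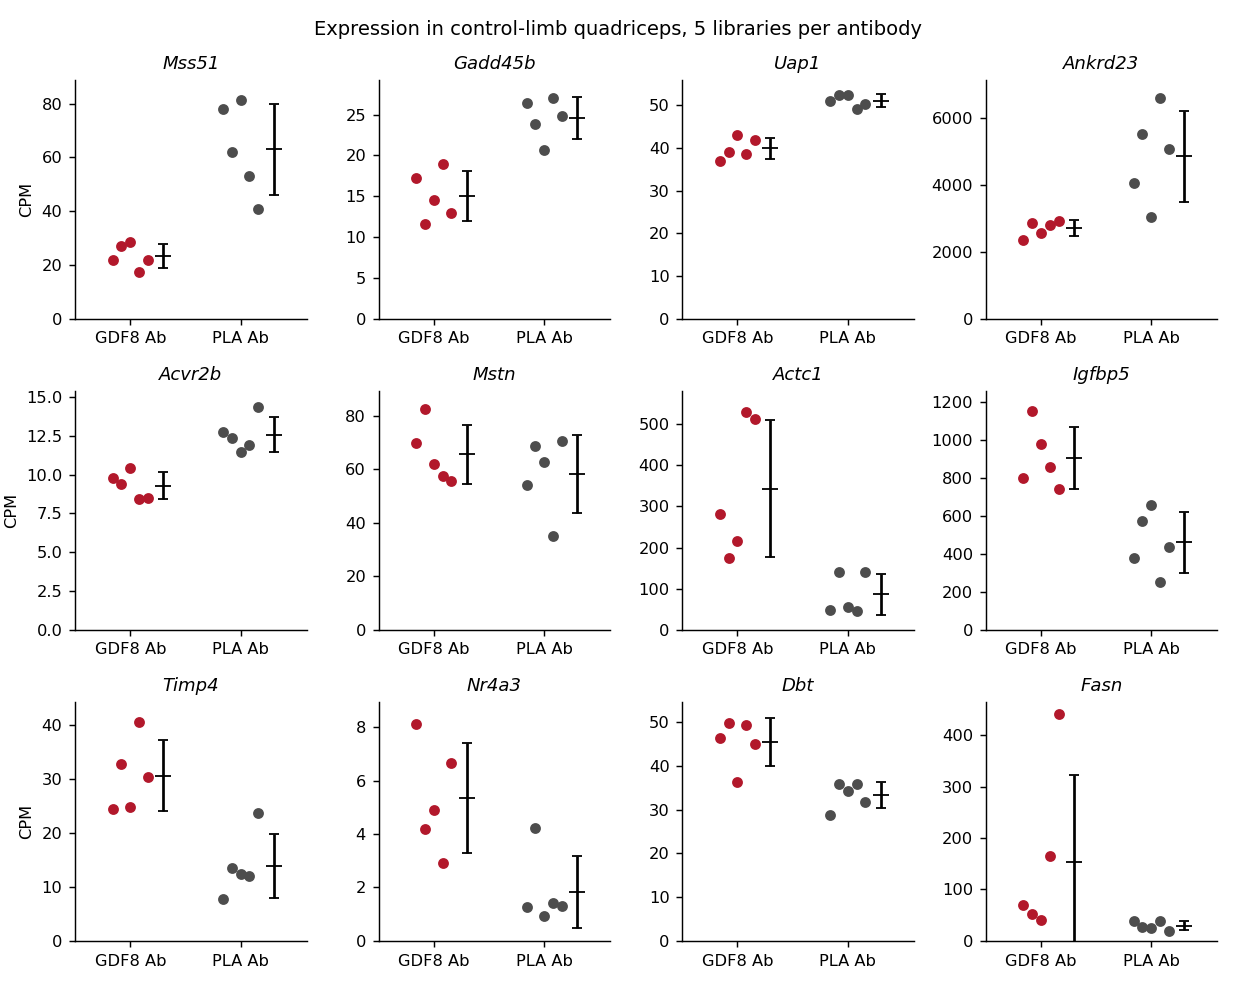
CPM in each control-limb library for 12 genes, GDF8 Ab in red and PLA Ab in gray, 5 libraries each, with the mean and SD beside the points and linear axes from 0. Mss51, Gadd45b, Uap1, Ankrd23 and Acvr2b have every GDF8 Ab library below every PLA Ab library, Actc1, Igfbp5, Timp4, Dbt and Fasn have every GDF8 Ab library above, and Mstn and Nr4a3 overlap.

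On the higher side, Actc1 had the largest difference of the genes whose groups did not overlap. It encodes cardiac α-actin, the main sarcomeric actin of heart and of developing skeletal muscle. GDF8 Ab libraries had 281, 176, 217, 529 and 514 CPM, against 47.7, 139.5, 56.2, 45.9 and 141 CPM in PLA Ab libraries. Libraries 4 and 5 were the highest with GDF8 Ab, and libraries 2 and 5 the highest with PLA Ab. The log2 fold change was 2.03 ± 0.39 (95% interval 1.18 to 2.89, adjusted p = 0.25).

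A pair of secreted proteins that act outside the fiber followed. Igfbp5, which binds insulin-like growth factors, had 801, 1152, 975, 856 and 740 CPM in GDF8 Ab libraries and 379, 574, 658, 249 and 437 CPM in PLA Ab libraries. Every GDF8 Ab library lay above every PLA Ab library (log2 fold change 1.04 ± 0.22, adjusted p = 0.273). Timp4, an inhibitor of matrix metalloproteinases, had 24.5, 32.7, 24.8, 40.5 and 30.4 CPM in GDF8 Ab libraries and 7.70, 13.5, 12.3, 12.1 and 23.6 CPM in PLA Ab libraries. Its groups were separated by less than 1 CPM, because of PLA Ab library 5 (log2 fold change 1.15 ± 0.23, adjusted p = 0.25).

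Nr4a3, an orphan nuclear receptor of muscle that exercise and cAMP signaling induce, had 8.13, 4.17, 4.90, 2.91 and 6.64 CPM in GDF8 Ab libraries and 1.27, 4.23, 0.925, 1.41 and 1.32 CPM in PLA Ab libraries. PLA Ab library 2 stood apart and caused the overlap (log2 fold change 1.21 ± 0.28, adjusted p = 0.273). The study, which used DESeq2, reports Nr4a3 as higher with GDF8 Ab in both limbs, and in this limma fit it did not pass adjustment. Nr4a1, the related receptor, averaged 137 ± 44.1 CPM with GDF8 Ab and 117 ± 28.7 CPM with PLA Ab (log2 fold change 0.20, adjusted p = 0.792). Bcl6, a transcriptional repressor, had 68.2 to 111 CPM with GDF8 Ab and 48.1 to 70.4 CPM with PLA Ab (log2 fold change 0.62 ± 0.13, adjusted p = 0.273). Its groups overlapped through GDF8 Ab library 3.

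Immunoglobulin transcripts were at low levels. Igkc, the κ light chain constant region, had 4.55, 1.09, 3.71, 2.27 and 1.56 CPM in GDF8 Ab libraries and 1.14, 0.523, 0.231, 0.449 and 0.124 CPM in PLA Ab libraries. Igha, the heavy chain of IgA, had 1.52 to 4.96 CPM with GDF8 Ab and 0.385 to 1.78 CPM with PLA Ab. The groups of each overlapped by a single PLA Ab library, and adjusted p was 0.273 for each. Both genes passed the filter of 1 CPM in 5 libraries through the GDF8 Ab libraries, the group in which they were higher. Their rank by p is therefore conditioned on that group. Ighm, the heavy chain of IgM, had 39.8 to 230 CPM with GDF8 Ab and 21.2 to 326 CPM with PLA Ab, a log2 fold change of 0.09 with the GDF8 Ab range lying within the PLA Ab range. Immunoglobulin genes form large families, and in whole muscle fewer cells of a type and less RNA per cell cannot be told apart. The other genes taken by the rule on this side were Slc9a3r2, Rasgrp2, Iqcg and Pfkl, with log2 fold changes of 0.54, 0.58, 0.50 and 0.44.

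The members of the GDF8 pathway itself came next in the comparison. Mstn, which encodes GDF8, had 69.7, 82.7, 62.2, 57.5 and 55.8 CPM in GDF8 Ab libraries and 54.3, 68.8, 62.7, 35.0 and 70.4 CPM in PLA Ab libraries. The groups overlapped throughout (log2 fold change 0.20 ± 0.18, 95% interval -0.19 to 0.58, adjusted p = 0.741). An antibody acts on the protein, so the transcript does not check the treatment. Acvr2b, the type II receptor of GDF8, had 9.76, 9.39, 10.4, 8.42 and 8.50 CPM in GDF8 Ab libraries and 12.8, 12.4, 11.4, 11.9 and 14.4 CPM in PLA Ab libraries. Its groups did not overlap (log2 fold change -0.40 ± 0.09, 95% interval -0.59 to -0.20, adjusted p = 0.273). Fst, which encodes follistatin, had 3.00 to 5.08 CPM with GDF8 Ab and 4.46 to 10.6 CPM with PLA Ab (log2 fold change -0.49 ± 0.20), and PLA Ab library 2 was the highest. Ltbp3, which binds latent TGF-β and GDF8 in the matrix, had a log2 fold change of -0.29 ± 0.09 and Smad4 one of -0.16.

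Of 21 tested genes of the myostatin and activin pathway list, 0 had an unadjusted p under 0.05 on the higher side and 4 on the lower side, which were the 4 just given, where 7.49% of all tested genes lay lower, and the list's median was -0.11. With median-of-ratios scaling the counts were 1 and 3 and the median was -0.06. Among the other members, the receptor genes Acvr1b and Tgfbr1 had log2 fold changes of 0.04 and -0.11, Smad2 and Smad3 -0.08 and 0.10, and Gdf11 0.04. Of 19 SMAD2/3 and TGF-β target genes, 0 had an unadjusted p under 0.05 in either direction, while 2 were higher and 0 lower with median-of-ratios scaling. A positive log2 fold change was found for 10 (median 0.01), against 38.5% of all tested genes. The study text reports SMAD2/3 transcriptional activity as down-regulated with GDF8 Ab in this limb, from a REACTOME pathway analysis that was not run here. Pmepa1, a SMAD target that dampens the pathway, had a log2 fold change of -0.34 ± 0.17 and Id1, a target of the related BMP pathway, 0.52 ± 0.25. In the BMP list, 3 of 18 genes lay lower and 0 higher at an unadjusted p under 0.05, against 1 lower and 1 higher with median-of-ratios scaling and 7.49% lower among all tested genes. Of the 3, the receptor gene Bmpr1a had groups that did not overlap, at 54.9 to 78.8 CPM with GDF8 Ab and 80.4 to 95.7 CPM with PLA Ab.

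Branched-chain amino acid catabolism held the most members at an unadjusted p under 0.05 on the higher side. This pathway breaks down leucine, isoleucine and valine in muscle mitochondria. Of 27 tested genes, 23 had a positive log2 fold change, against 38.5% of all tested genes. An unadjusted p under 0.05 was found for 8 (all higher), against 2.43% of all tested genes. The study text names amino acid metabolism as higher with GDF8 Ab after ACLT. The list was chosen with earlier results of these data known. Its count is thus no independent evidence of direction, and adjacent members of a pathway are not independent genes. The median was 0.11, against -0.04 for all tested genes. With median-of-ratios scaling 12 of 27 had an unadjusted p under 0.05 and the median was 0.16.

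The genes act at successive steps. Bcat2, the mitochondrial transaminase of the first step, had 82.1, 67.9, 64.9, 65.3 and 75.4 CPM in GDF8 Ab libraries and 47.9, 58.2, 61.3, 54.0 and 56.1 CPM in PLA Ab libraries (log2 fold change 0.35 ± 0.09, adjusted p = 0.309). Dbt, the transacylase core of the branched-chain ketoacid dehydrogenase complex, had 46.5, 49.9, 36.3, 49.4 and 44.9 CPM in GDF8 Ab libraries and 28.8, 35.9, 34.3, 35.9 and 31.8 CPM in PLA Ab libraries (log2 fold change 0.43 ± 0.10, adjusted p = 0.273). Neither gene's groups overlapped. Oxct1, which activates ketone bodies in muscle mitochondria, had 478 to 575 CPM with GDF8 Ab and 320 to 503 CPM with PLA Ab (log2 fold change 0.38 ± 0.11). Bckdha, of the same complex as Dbt, and the downstream enzymes Ivd, Mccc2, Pccb and Hibch had log2 fold changes of 0.22, 0.34, 0.26, 0.20 and 0.18.

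Other mitochondrial lists had positive medians of the same order, and their counts at an unadjusted p under 0.05 depended on the scaling. Such medians were not particular to mitochondrial genes. The glycolysis and glycogen list had 24 positive of 36 (median 0.11), with 3 higher and 2 lower at that threshold. The fast fiber list had 13 positive of 18 (median 0.10). With the deposited scaling, 2.43% of all tested genes were higher and 7.49% lower at that threshold, and 38.5% had a positive log2 fold change. The tricarboxylic acid cycle list had 28 positive of 34 tested genes (median 0.11), with 3 higher and 1 lower at that threshold. The higher ones were Dlat and Dlst, core subunits of pyruvate and oxoglutarate dehydrogenase, and citrate synthase Cs, at 0.25, 0.22 and 0.21. The lower one was Pdp1, the phosphatase that activates pyruvate dehydrogenase, at -0.38. The nuclear-encoded respiratory chain list had 68 positive of 79 (median 0.07), with 3 higher and 0 lower. The fatty acid list had 32 positive of 40 (median 0.11), with 2 higher and 1 lower. With median-of-ratios scaling these 3 medians were 0.16, 0.12 and 0.16, and the counts were 8 higher and 1 lower for the cycle, 12 higher and 0 lower for the respiratory chain and 4 higher and 0 lower for the fatty acid list. Of all 12559 tested genes, 586 were higher and 506 lower with that scaling. The study text names oxidative respiration as higher with GDF8 Ab after ACLT and activation of the cycle in the control limb. All 3 lists were chosen with earlier results of these data known. The same limit therefore holds for them. The plot of gene lists sets their members beside the other groups.

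**Figure D3:**
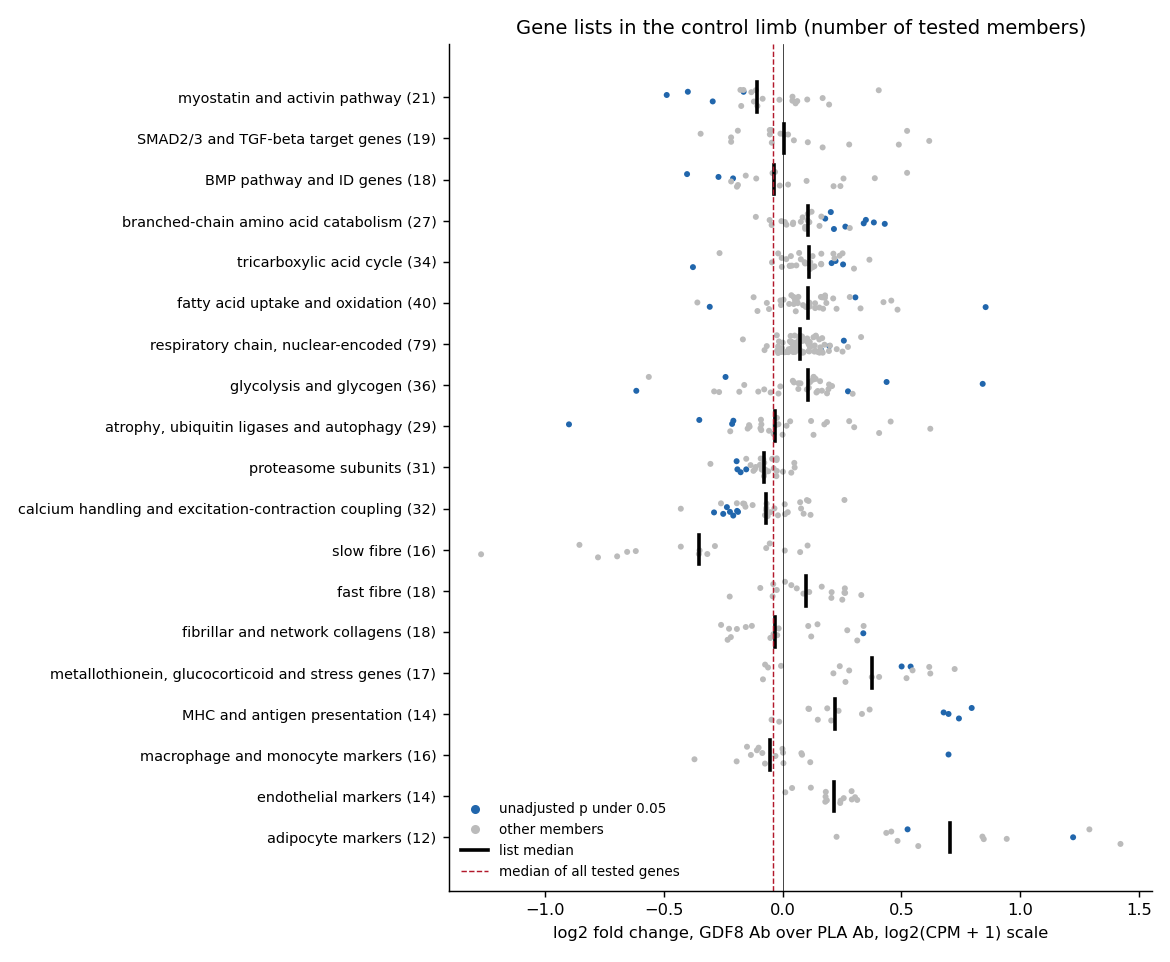
Log2 fold change of GDF8 Ab over PLA Ab for each tested member of 19 gene lists (points, with list sizes in parentheses), the list median (black bar) and the median of all tested genes (red dashed line, -0.04). Blue points have an unadjusted p under 0.05, and none passed adjustment. The branched-chain amino acid list has 8 blue points, all to the right, and the calcium handling list has 7, all to the left.

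With the deposited scaling, genes of protein breakdown that had an unadjusted p under 0.05 lay only on the lower side. The ubiquitin ligase genes of muscle atrophy, Trim63 and Fbxo32, averaged 201 ± 38.0 and 457 ± 160 CPM with GDF8 Ab and 185 ± 32.4 and 393 ± 104 CPM with PLA Ab (log2 fold changes 0.12 and 0.19, adjusted p = 0.807 and 0.827). Of 29 atrophy and autophagy genes, 0 were higher and 4 lower at an unadjusted p under 0.05 (7.49% of all tested genes were lower), and 2 were higher and 3 lower with median-of-ratios scaling. Among them Map1lc3a and Becn1, of autophagosome formation, had groups that did not overlap, with log2 fold changes of -0.35 and -0.21. Eda2r, a receptor of the muscle-wasting cytokine EDA-A2, had 12.3, 13.2, 26.2, 8.60 and 11.7 CPM in GDF8 Ab libraries and 27.2, 16.8, 30.8, 32.5 and 25.3 CPM in PLA Ab libraries, with GDF8 Ab library 3 standing apart (log2 fold change -0.90 ± 0.24, adjusted p = 0.31). The list's median was -0.03 and turned to 0.02 with median-of-ratios scaling.

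Of 31 proteasome subunit genes, 27 had a negative log2 fold change (median -0.08). Most tested genes did too, as 38.5% of them had a positive one. An unadjusted p under 0.05 was found for 4, all lower, where 7.49% of all tested genes were lower. Psmd2 and Psmb4 had groups that did not overlap, each with a log2 fold change of -0.19. With median-of-ratios scaling the count was 1 and the median -0.03. Of 32 calcium handling and excitation-contraction genes, 7 were lower and 0 higher at that threshold (median -0.07). They were Orai1, the store-operated calcium channel, Camk2g, Cacng1, Kcnma1, Calm2, Jsrp1 and Trdn, at -0.19 to -0.29. With median-of-ratios scaling 2 were lower and 1 higher, so the count follows the scaling.

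Slow fiber genes varied more between libraries than between antibodies. The slow fiber list, of the contractile proteins of type I fibers, had 3 positive of 16 members (median -0.35), where 38.5% of all tested genes were positive. It had 0 members at an unadjusted p under 0.05 in either direction. Its summed level was 355 to 5705 CPM with GDF8 Ab and 745 to 4866 CPM with PLA Ab. Csrp3, a stretch-responsive protein of the Z disc, had 6.32 to 65.5 CPM with GDF8 Ab and 18.3 to 215 CPM with PLA Ab (log2 fold change -1.27 ± 0.71, adjusted p = 0.585). The fast fiber list had 13 positive of 18 members (median 0.10) and 0 at that threshold in either direction. With median-of-ratios scaling it had 16 positive (median 0.15), with 1 higher and 0 lower at that threshold. In the regeneration list, the intermediate filament gene Des had 2291 to 2997 CPM with GDF8 Ab and 2950 to 3622 CPM with PLA Ab (log2 fold change -0.35 ± 0.10), and the laminin receptor Itga7 stood at -0.43 ± 0.14. Chrnb1, the β subunit of the muscle acetylcholine receptor, had 16.9 to 21.7 CPM with GDF8 Ab and 22.02 to 31.9 CPM with PLA Ab (log2 fold change -0.43 ± 0.11), without overlap.

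Few matrix genes had an unadjusted p under 0.05, where 2.43% of all tested genes were higher and 7.49% lower. A positive log2 fold change was found for 38.5% of all tested genes. Postn, which encodes periostin, averaged 4.90 ± 3.81 CPM with GDF8 Ab and 4.17 ± 1.79 CPM with PLA Ab (log2 fold change 0.03, 95% interval -0.80 to 0.86). The collagen cross-linking enzyme Lox averaged 5.93 ± 0.90 CPM with GDF8 Ab and 7.05 ± 2.38 CPM with PLA Ab (log2 fold change -0.17, 95% interval -0.59 to 0.25). Acta2, the smooth muscle actin of vessel walls and myofibroblasts, had 22.5, 15.1, 19.5, 20.8 and 25.8 CPM in GDF8 Ab libraries and 14.2, 13.5, 11.7, 22.5 and 15.5 CPM in PLA Ab libraries. PLA Ab libraries 4 and 5 lay within the GDF8 Ab range (log2 fold change 0.41 ± 0.17, adjusted p = 0.456). Of 18 collagens, 1 was higher and 0 lower at an unadjusted p under 0.05, with a median of -0.03 that turned to 0.02 with median-of-ratios scaling. That gene was Col4a1, of the basement membrane, at 76.8 to 115 CPM with GDF8 Ab and 65.0 to 91.2 CPM with PLA Ab. Of 36 matrix processing and matricellular genes, 10 had a positive log2 fold change (median -0.08), with 1 higher and 2 lower at that threshold. The higher one was Eln, which encodes elastin, at 0.46 ± 0.15, and the lower ones were the proteoglycan gene Ogn at -0.44 and the thrombospondin gene Thbs3 at -0.32. Homer2, a scaffold protein of muscle calcium signaling, averaged 54.6 ± 17.7 CPM with GDF8 Ab and 50.9 ± 18.1 CPM with PLA Ab (log2 fold change 0.10, 95% interval -0.49 to 0.70).

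Several genes of lipid synthesis, though not all that were looked at, were high in GDF8 Ab libraries 4 and 5. Fasn, the fatty acid synthase, had 68.9, 52.7, 41.2, 166 and 442 CPM in GDF8 Ab libraries and 38.8, 26.2, 25.0, 38.9 and 18.3 CPM in PLA Ab libraries. The groups did not overlap, the criterion by which Fasn was taken, and the margin was 41.2 over 38.9 CPM. The log2 fold change was 1.81 ± 0.53 (adjusted p = 0.318). Acaca, which makes malonyl-CoA, and Scd1, which desaturates fatty acids, had log2 fold changes of 0.85 ± 0.30 and 1.22 ± 0.46 with the same libraries highest. Acly, Elovl6 and Thrsp, chosen after the values of the others were seen, stood at 0.93, 1.39 and 0.82, and Srebf1, which encodes a transcription factor of lipid synthesis, at -0.84. Elovl6 passed the filter of 1 CPM in 5 libraries through the GDF8 Ab libraries. Others did not have the same libraries highest. Me1, the malic enzyme, had 238 to 298 CPM with GDF8 Ab and 232 to 328.5 CPM with PLA Ab (log2 fold change -0.09), with library 4 the lowest under each antibody. Pnpla3 and Mid1ip1 stood at 1.07 and 0.48, and GDF8 Ab library 5 was below libraries 1, 2 and 4 for Pnpla3.

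Fat-cell markers were high in the same libraries and in a PLA Ab library. Adipoq, which encodes adiponectin, had 10.2, 7.04, 10.3, 32.8 and 42.9 CPM in GDF8 Ab libraries and 5.71, 10.8, 2.64, 30.1 and 8.13 CPM in PLA Ab libraries. PLA Ab library 4, with 30.1 CPM of Adipoq, had 38.9 CPM of Fasn, and GDF8 Ab library 4, with 32.8 CPM of Adipoq, had 166 CPM. These are values of a single library under each antibody. Of 12 tested adipocyte markers, 12 had a positive log2 fold change (median 0.71), against 38.5% of all tested genes. An unadjusted p under 0.05 was found for 2, where 2.43% of all tested genes lay higher at that threshold. The list summed to 1476 to 4189 CPM with GDF8 Ab and 1259 to 2718 CPM with PLA Ab, and it holds Scd1. Without GDF8 Ab libraries 4 and 5 and PLA Ab library 4, a choice made after seeing the data, the log2 fold changes of Fasn, Acaca and Scd1 were 1.00, 0.44 and 0.69, and that of Actc1, also highest in GDF8 Ab libraries 4 and 5, was 1.36. In this smaller fit 0 genes passed, and 160 were higher and 434 lower at an unadjusted p under 0.05. The part of fat-cell RNA in these differences was not tested.

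**Figure D4:**
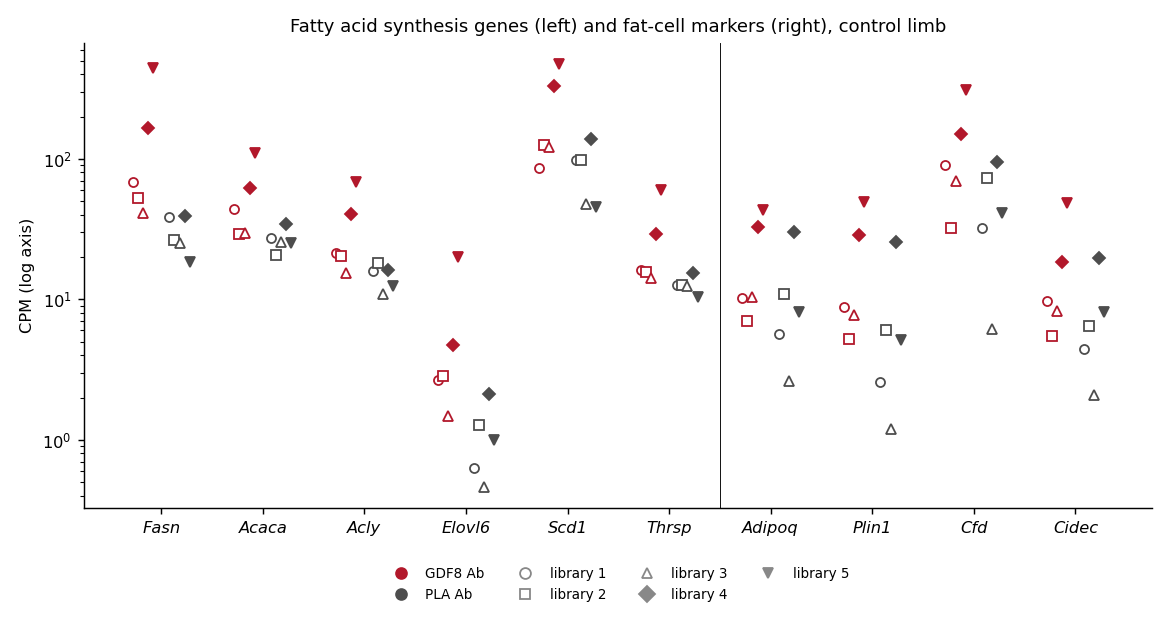
CPM on a log axis in each control-limb library for 6 fatty acid synthesis genes (left of the line) and 4 fat-cell markers (right), GDF8 Ab in red and PLA Ab in gray, with a symbol for each library number. GDF8 Ab libraries 4 and 5 are the highest of their group throughout. PLA Ab library 4 and GDF8 Ab library 4 have 30.1 and 32.8 CPM of Adipoq and 38.9 and 166 CPM of Fasn.

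Markers of other cells showed few differences at an unadjusted p under 0.05. All 14 endothelial markers had a positive log2 fold change (median 0.21) and 0 passed that threshold in either direction, with Pecam1 at 33.7 to 52.3 CPM with GDF8 Ab and 28.1 to 45.0 CPM with PLA Ab. With median-of-ratios scaling 3 of the 14 lay higher and 0 lower at that threshold, where 586 of all 12559 tested genes lay higher. The list summed to 530 to 708 CPM with GDF8 Ab and 465 to 740 CPM with PLA Ab. Macrophage and monocyte markers had 6 positive of 16 (median -0.05) with 1 higher and 0 lower, and Cd68, a lysosomal protein of macrophages, stood near 1 CPM, at 0.936 ± 0.264 with GDF8 Ab and 1.54 ± 0.53 with PLA Ab. The higher one was Cd74, the invariant chain of MHC class II. It appeared with H2-Aa, H2-Ab1 and H2-Eb1, the class II chains, at log2 fold changes of 0.70, 0.68, 0.80 and 0.74. These were the 4 of 14 MHC genes at that threshold, all higher, where 2.43% of all tested genes were, and PLA Ab library 2 was the highest of its group for each and overlapped the GDF8 Ab libraries. Erythroid markers had 0 positive of 6 (median -0.24). The share of all tested genes with a positive log2 fold change, 38.5%, stands beside each of these counts.

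Transcripts that follow hormones and time of day were also looked at. Tsc22d3 and Zbtb16, targets of the glucocorticoid receptor, had log2 fold changes of 0.54 ± 0.16 and 0.50 ± 0.18. The list of metallothionein, glucocorticoid and stress genes had 13 positive of 17 (median 0.38), with 2 higher and 0 lower at an unadjusted p under 0.05. Of all tested genes, 2.43% were higher at that threshold and 38.5% had a positive log2 fold change. With median-of-ratios scaling the list had 6 higher and 0 lower, where 586 of all 12559 tested genes were higher. Of 19 circadian clock genes, 0 were higher and 3 lower at that threshold with the deposited scaling, where 7.49% of all tested genes lay lower. With median-of-ratios scaling the counts were also 0 and 3, where 506 of all 12559 tested genes were lower, and the median was -0.09. Of the 3 lower with the deposited scaling, Nr1d1, a clock repressor, had 91.4 to 148 CPM with GDF8 Ab and 150.5 to 206 CPM with PLA Ab, without overlap. Ppp1r3c, which targets a phosphatase to glycogen, had 884, 1297, 434, 568 and 390 CPM in GDF8 Ab libraries and 409, 396, 368, 259 and 384 CPM in PLA Ab libraries. Its groups overlapped, and GDF8 Ab libraries 1 and 2 were the highest (log2 fold change 0.84 ± 0.28). The labels give neither the hour of collection nor a batch.

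The same antibody comparison in the ACLT limb shared no library with the one above, but each mouse gave both limbs. The difference between the limbs was tested in a limma fit of all 20 libraries that did not pair the limbs of a mouse. With the mouse, assumed from antibody and number, as a block, the smallest adjusted p was 0.0857, in place of 0.301. In the unpaired fit, used below, 0 of 12559 genes (0.0%) had an adjusted p under 0.05. The antibody log2 fold change was higher in the ACLT limb for 182 genes and lower for 1667 at an unadjusted p under 0.05. With median-of-ratios scaling this split was 788 higher and 1399 lower, and the median difference over all genes was 0.01 against -0.14 with the deposited scaling. Mss51 had 22.3 to 46.3 CPM in GDF8 Ab ACLT libraries and 23.0 to 82.0 CPM in PLA Ab ACLT libraries, so its groups overlapped there. Its log2 fold change in the ACLT limb was -0.55 ± 0.27, against -1.37 in the control limb (adjusted p of the difference 0.326). For Junos these values were -0.26 and -0.94 (0.301), for Hspa1l -0.06 and -0.74 (0.301), for Acvr2b -0.11 and -0.40 (0.387) and for Igfbp5 0.46 and 1.04 (0.47). For Actc1 they were 0.48 and 2.03 (0.34) and for Fasn 0.34 and 1.81 (0.354). None of these genes was shown to differ between the limbs. They were taken by their control-limb values, which also enter this test. A smaller value in the ACLT limb could therefore follow from that choice alone.

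Other genes had like values in both limbs. Timp4 stood at 1.27 ± 0.26 in the ACLT limb and 1.15 ± 0.23 in the control limb, and Dbt at 0.60 ± 0.16 and 0.43 ± 0.10. Bcat2 stood at 0.34 ± 0.12 in the ACLT limb and 0.35 ± 0.09 in the control limb, and Uap1 at -0.31 ± 0.07 and -0.35 ± 0.06. In the ACLT limb Timp4, Dbt and Uap1 passed the test (adjusted p = 0.0241, 0.0309 and 0.0251) and Bcat2 did not (adjusted p = 0.0562). Acta2 at -1.93 ± 0.49, Col4a1 at -0.67 ± 0.21 and Cd68 at -2.36 ± 0.36 also passed in the ACLT limb (adjusted p = 0.0293, 0.0409 and 0.00903). These 3 genes of the injury response had wide intervals there. In the control limb they stood at 0.41, 0.34 and -0.37 (adjusted p of the difference 0.301 for each). Without PLA Ab ACLT library 1 the test of the difference gave 4 genes higher and 352 lower, with these 3 among the lower at an adjusted p of 0.0485. The median SD of a gene's log2 level was 0.312 in PLA Ab ACLT libraries and 0.162 to 0.189 in the other 3 groups.

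**Figure D5:**
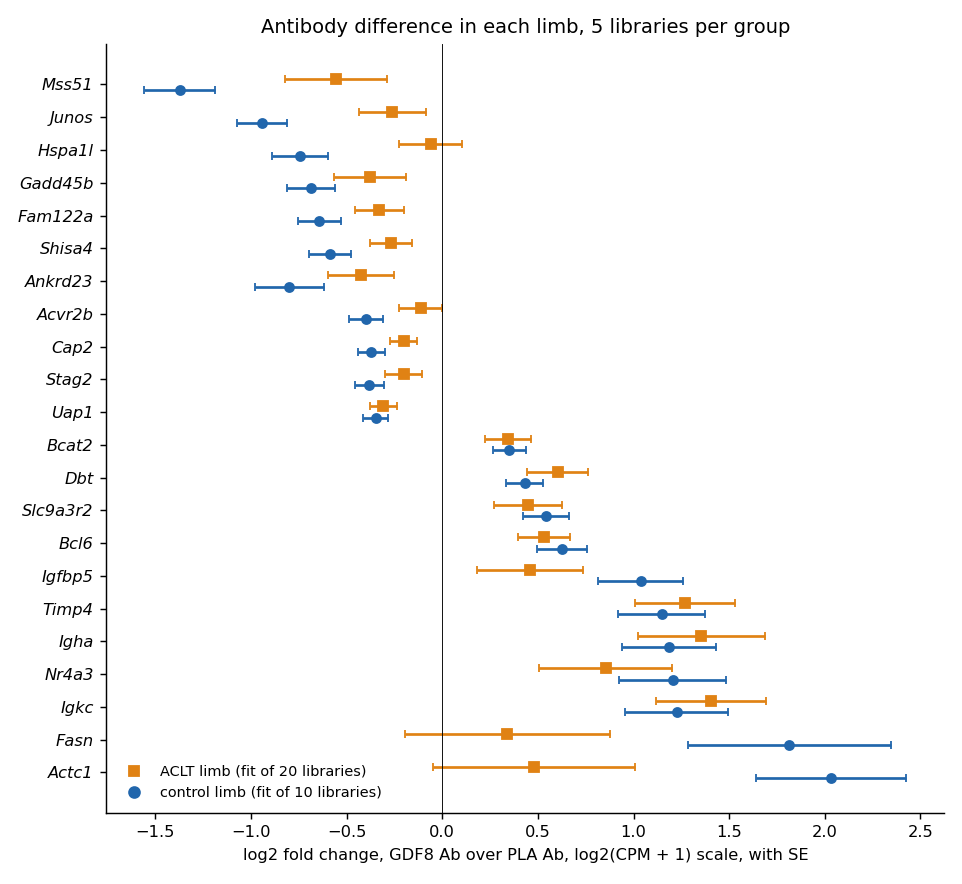
Log2 fold change of GDF8 Ab over PLA Ab with its SE for 22 genes, in the ACLT limb (orange squares, fit of 20 libraries) and the control limb (blue circles, fit of 10 libraries). Timp4, Uap1 and Bcat2 lie close together in both limbs, while Mss51 is at -0.55 in the ACLT limb and -1.37 in the control limb and Actc1 at 0.48 and 2.03. Most of the genes were taken by their values in the control limb.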

How the data were processed

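RNA from quadriceps of each mouse was sequenced as a separate library. The deposited values are CPM, read counts that the authors scaled to a library total of 1000000 for 17415 genes, with STAR 2.7.3a and Partek named in the submitters' processing notes beside DESeq2 and the builds mm10 and mm39. Of 17378 genes shared with a GRCm38 annotation, 405 had the same start, so the coordinates are of another build. Reads were taken as counting events without molecular identifiers, so floors cover counting error only. Values were not whole reads for all genes, so no count model was fitted.

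Genes with at least 1 CPM in 5 of the 10 control-limb libraries were tested, which left 12559. limma 3.58.1 (R 4.3.3) was fitted to log2(CPM + 1), which understates the change of low genes, with a mean-variance trend, no covariate and Benjamini-Hochberg adjustment, at a threshold of 0.05. The antibody difference between limbs came from a fit of 4 group means over 20 libraries. Promoters were matched by symbol. Alternatives covered pseudocount, filter, scaling, weights, blocks, covariate and single libraries. Scripts were tested on simulated data.

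Genes were named if the study turned on them, if they had the 8 smallest p in a direction, if they were among the 8 largest differences without overlap at 5 CPM or more, or as up to 3 members of a list by p. Other members past an unadjusted p of 0.05 were named after their values were seen. The members, the 39 gene lists and the rules were chosen with earlier results of these data known. The labels give no mouse identity, and p-values measure the spread between these libraries. Replicate numbers mark different mice under each antibody. Deviations of same-numbered libraries correlated at -0.08, 0.16, 0.54, 0.27 and 0.21 for numbers 1 to 5, not above 0.1 for every number, so the numbers were not taken as pairs. One alternative assumed that an antibody and number name a mouse, which the labels do not state.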

Additional observations from a re-analysis of the deposited data

Results flagged for a closer look

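In 9 of 146 groups of 5 control-limb libraries, taken over 73 named genes, a single library stood apart from the other 4 by Dixon's criterion (6.2% of groups, where chance gives about 1 in 20). With GDF8 Ab these were library 3 for Eda2r (26.2 CPM) and library 5 for Chrnb1 (16.85 CPM). With PLA Ab, library 2 stood apart for Nr4a3 (4.229 CPM), Fst (10.55 CPM), Becn1 (71.47 CPM) and Psmb4 (124 CPM), in each case as the highest. Library 1 was the highest for Igha (1.776 CPM), library 3 the lowest for Cd68 (0.601 CPM) and library 4 the lowest for Ppp1r3c (259 CPM). No named gene had a difference between the limbs that passed the test.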

How the results depend on the processing

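The count of called genes stayed at 0 in each direction under every alternative except 3, each of which gave 0 higher. The alternatives that gave lower genes were the replicate number as a block (1 gene, Mss51), Y-linked expression as a covariate (3 genes) and leaving out PLA Ab library 5 (1 gene, so 0 to 1 over all single libraries left out). With the mouse, assumed from antibody and number, as a random replicate block in all 20 libraries the count was 0 (same-numbered limbs correlated at 0.092 to 0.526 with GDF8 Ab and 0.013 to 0.463 with PLA Ab). Same-numbered libraries are different mice, so the block shares only a number. Counts at an unadjusted p under 0.05 ran from 153 (fit of all 20 libraries) to 586 (median-of-ratios scaling) higher and from 434 (without libraries with high fat-cell markers) to 1304 (covariate) lower, and the number as a replicate block gave 540 and 1200. Of 73 named genes, 71 kept their sign under up to 26 alternatives. Homer2 turned to -0.076 with the covariate and ran from -0.081 to 0.325 with a library left out. Postn turned to -0.007 at a pseudocount of 0.1, -0.105 with array weights, -0.317 without libraries with Y-linked expression and -0.155 without those with high fat-cell markers, and it ran from -0.283 to 0.307 with a library left out. The cause was not tested. Of 38 list medians, 0 moved beyond the spread between libraries. For the difference between limbs, leaving out single libraries gave 0 to 4 genes higher and 0 to 352 lower, both highest counts without PLA Ab ACLT library 1, and 0 under the other alternatives, with the mouse as replicate block included. The difference for Timp4 ran from -0.081 to 0.294 with a library left out. Depth limits genes near 1 CPM, as Igkc and Cd68, and the 5 libraries a group set the intervals of the rest.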

Other observations

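The genes in this paragraph were chosen after their values were seen. Several immediate early and stress genes were highest in GDF8 Ab libraries 1, 2 and 5, a set that differs from the libraries with high lipid genes. Ddit4, an inhibitor of mTORC1 signaling that glucocorticoids and energy stress induce, had 28.2, 26.6, 3.80, 7.18 and 36.9 CPM in GDF8 Ab libraries 1 to 5 and 4.31, 3.09, 5.13, 5.20 and 11.5 CPM in PLA Ab libraries 1 to 5. Libraries 3 and 4 with GDF8 Ab thus lay within the PLA Ab range (log2 fold change 1.37 ± 0.52, adjusted p = 0.432). Gadd45g, a stress gene related to Gadd45b, had 80.7, 67.0, 31.9, 31.2 and 94.1 CPM in GDF8 Ab libraries and 27.7, 17.4, 32.1, 16.8 and 37.7 CPM in PLA Ab libraries (log2 fold change 1.11 ± 0.33, adjusted p = 0.326). Its sign was opposite to that of Gadd45b, at -0.69. The GDF8 Ab libraries 1, 2 and 5 were also the highest of their group for Nr4a1 (138, 154 and 200 CPM), Tsc22d3 (173, 237 and 209 CPM), Klf2 (20.1, 16.2 and 38.4 CPM) and Zfp36 (23.4, 15.9 and 27.0 CPM). The labels give no hour or order of collection to set beside these 6 genes.

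Polyamine and folate enzymes were among the smaller differences. Shmt2, the mitochondrial serine hydroxymethyltransferase, had 27.1, 27.6, 24.4, 24.6 and 27.6 CPM in GDF8 Ab libraries and 22.4, 22.3, 22.9, 22.5 and 23.4 CPM in PLA Ab libraries, without overlap (log2 fold change 0.20 ± 0.07, adjusted p = 0.374). Oaz1, the ornithine decarboxylase antizyme, had 200 to 221 CPM with GDF8 Ab and 226 to 288 CPM with PLA Ab, also without overlap (log2 fold change -0.24 ± 0.08, adjusted p = 0.378). Azin1, the inhibitor of that antizyme, lay on the same side at -0.33 ± 0.10. Tfam, which packages mitochondrial DNA, had 40.6 to 42.7 CPM with GDF8 Ab and 42.7 to 53.8 CPM with PLA Ab, and Perm1, a muscle regulator of oxidative genes, had a log2 fold change of 0.30 ± 0.14, opposite in sign to Tfam at -0.17 ± 0.07.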
